A study of Mus musculus with 6 samples.

Results

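The genes described are the 3 NR4A nuclear receptors (Nr4a1, Nr4a2, Nr4a3), 4 genes of the BTG/TOB antiproliferative family (Btg1, Btg2, Tob1, Tob2) and the 3 RNA decay factors Zfp36, Zfp36l1 and Zfp36l2. They were chosen by name, through the Entrez Gene number of the probe set, and all 10 were found among 23185 named genes on the array. The study hybridised 6 Affymetrix Mouse Gene 2.0 ST arrays: 3 with RNA of wild-type (WT) animals and 3 with RNA of Merit40-/- animals. Merit40, encoded by Babam1, is a subunit shared by the BRISC and BRCA1-A complexes, which cleave lysine-63-linked ubiquitin chains. All 6 carry RNA of hematopoietic stem cells (HSCs) from the marrow of young adult animals, double sorted as CD150+CD48- LSK cells and neither cultured nor treated. The labels do not say how the Merit40-/- line was made, the sex of the mice or how many mice went into an array, so p-values measure the spread between these arrays. Values are log2 expression values made by RMA, which gives all arrays the same overall scale. Differences are taken only within a probe set across arrays, since levels of different probe sets are not amounts of transcript. Where a level is set beside the median of all genes, it describes signal and not the amount of transcript.

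NR4A receptors are orphan nuclear receptors that are transcribed within minutes of a stimulus, and they are known as brakes on the proliferation of HSCs and on myeloid leukaemia. BTG and TOB proteins slow cell division by binding the CCR4-NOT complex, which shortens the poly(A) tails of mRNAs. ZFP36 proteins bind AU-rich elements (AREs) in mRNAs such as those of cytokines and also recruit that complex, so that both families act on mRNA decay. Nr4a1, Btg2 and Zfp36 are classical immediate early genes, and Btg2 is also a target of p53.

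Promoter windows of 9 of the 10 genes were found in the RefSeq table (build GRCm38.p6), each running from 250 bases before to 50 bases after the transcription start. The windows of 4 genes are shown because the results below turn on these genes: Btg2 has the lowest difference between genotypes, Nr4a1 and Nr4a2 are paralogs with differences of opposite sign, and Zfp36 is the founder of its family. They lie at chr1:134079106-134079405 (Btg2, minus strand), chr15:101266596-101266895 (Nr4a1, plus strand), chr2:57123954-57124253 (Nr4a2, minus strand) and chr7:28379179-28379478 (Zfp36, minus strand). Capitals mark the cyclic AMP response element (CRE), TGACGTCA, in Btg2, its half-site TGACG on either strand in Nr4a1 and Nr4a2, and the CArG box, the element bound by serum response factor, in Zfp36.
Btg2: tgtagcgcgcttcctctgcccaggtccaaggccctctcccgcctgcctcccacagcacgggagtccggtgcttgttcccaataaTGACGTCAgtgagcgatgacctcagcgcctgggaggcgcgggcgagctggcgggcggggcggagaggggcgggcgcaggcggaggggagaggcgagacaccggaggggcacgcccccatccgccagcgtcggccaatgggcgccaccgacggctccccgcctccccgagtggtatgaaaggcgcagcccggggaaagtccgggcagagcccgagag
Nr4a1: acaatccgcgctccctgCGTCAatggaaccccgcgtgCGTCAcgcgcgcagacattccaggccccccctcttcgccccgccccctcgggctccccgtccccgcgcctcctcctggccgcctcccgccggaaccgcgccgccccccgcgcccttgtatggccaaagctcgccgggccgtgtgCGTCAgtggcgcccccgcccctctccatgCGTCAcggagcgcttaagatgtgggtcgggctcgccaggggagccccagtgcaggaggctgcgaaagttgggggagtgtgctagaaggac
Nr4a2: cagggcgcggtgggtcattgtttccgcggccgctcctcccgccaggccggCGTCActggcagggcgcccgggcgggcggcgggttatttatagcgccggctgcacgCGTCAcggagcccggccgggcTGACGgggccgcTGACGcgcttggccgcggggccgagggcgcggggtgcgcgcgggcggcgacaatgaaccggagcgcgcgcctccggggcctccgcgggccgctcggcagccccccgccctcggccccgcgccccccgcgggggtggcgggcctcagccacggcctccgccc
Zfp36: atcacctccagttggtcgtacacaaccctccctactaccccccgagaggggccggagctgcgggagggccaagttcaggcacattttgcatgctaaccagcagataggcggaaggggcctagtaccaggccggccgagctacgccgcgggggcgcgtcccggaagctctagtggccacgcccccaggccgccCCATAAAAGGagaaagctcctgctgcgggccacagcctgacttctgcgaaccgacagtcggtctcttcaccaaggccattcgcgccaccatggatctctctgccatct

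The half-site TGACG was matched on both strands, and matches inside a full CRE were counted too. It was found 4 times in each NR4A window, which carry no full CRE. Btg1 has 2 matches, Tob1 has 1, and the 2 in Btg2 overlap in its CRE at position -166 from the start. Over all 32851 windows of the table, 20.8% hold at least 1 half-site and 1.79% hold a full CRE. Among the 9 windows of members, 6 hold at least 1 half-site. How many of all windows hold 4 was not counted. The CArG box of Zfp36 lies at position -58, and 1.63% of all windows hold one. The NR4A response element AAAGGTCA was found in 0 of the 9 windows and in 1.51% of all windows. The letters TATAAA, like all these motifs, were matched on both strands. They were found in the windows of Nr4a2, Btg1, Tob1 and Zfp36l1 and in 13.6% of all windows. In Nr4a2 the match is on the opposite strand, at position -164. A match is a description of the letters in the window and not evidence that a factor binds there.

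**Figure D1:**
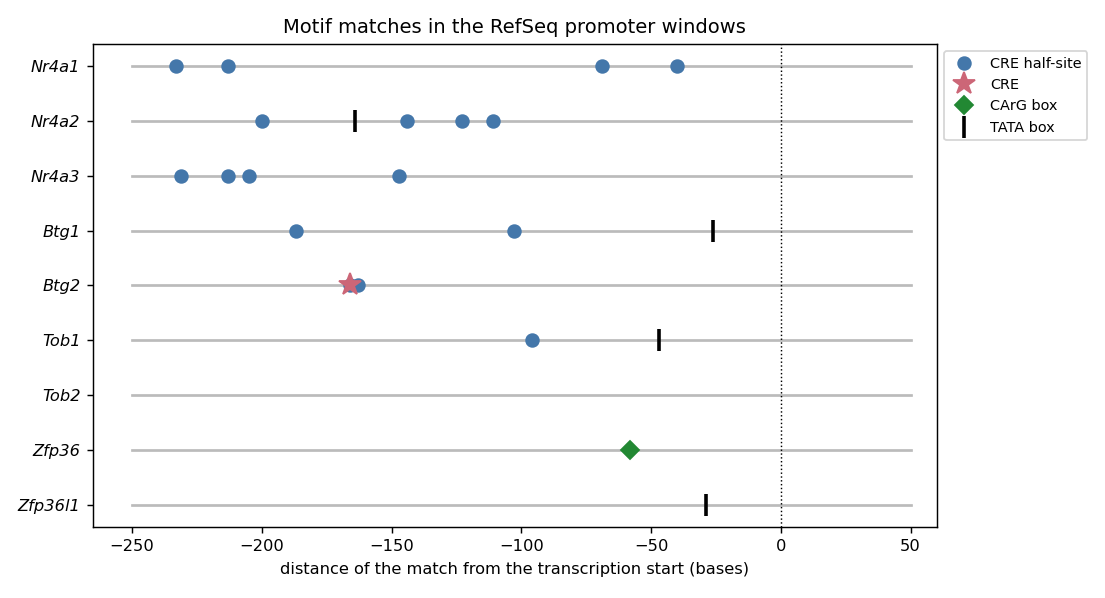
Motif matches in the promoter windows of 9 genes, by distance from the transcription start in bases on the horizontal axis and 1 line per gene. Circles are CRE half-sites, the star is the full CRE of Btg2, the diamond is the CArG box of Zfp36 and vertical strokes are TATAAA. Matches on both strands are shown, and each NR4A window holds 4 half-sites.

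Before the members, the arrays themselves were compared. Babam1, the gene that encodes Merit40, read 7.91, 8.04 and 8.05 in WT against 4.29, 3.87 and 4.01 in Merit40-/- HSCs, and fell by 3.94 (SE 0.14, adjusted p = 5.04e-05 in limma). The 12 measured HSC markers, among them Slamf1 (CD150) and Kit, all lay above the median of all genes (4.93), and their mean level was 8.34 to 8.63 in WT and 8.47 to 8.72 on the Merit40-/- arrays. Of 6 measured markers that the sort selects against, Cd3e, Cd4 and Cd8a lay below that median. The other 3 lay above it: Cd48 at a mean of 5.42 in WT and 5.39 in Merit40-/-, Itgam at 6.37 and 6.68, and Ly6g at 6.18 and 6.99. Merit40-/- replicate 1 stood apart in skeletal muscle genes: all 10 of 10 listed muscle markers were highest there, at a mean of 8.71 against 4.77 to 5.05 in WT and 4.94 and 5.12 on the other Merit40-/- arrays. Merit40-/- replicate 3 was the highest array for 6 of 8 osteoclast markers, at a mean of 5.37 against 3.94 to 4.10 in WT and 4.10 and 4.12 on the other Merit40-/- arrays, with Ctsk at 7.94 there. RMA values have no 0, and the osteoclast markers Calcr and Dcstamp read 3.51 and 3.58 on that array, below the median of all genes. The 6 megakaryocyte markers had means of 7.86 to 8.09 in WT and 7.53 to 7.71 in Merit40-/-. They differed in both directions, 2 higher and 4 lower, with a median difference of -0.46. The 5 measured erythroid markers had means of 7.16 to 7.61 in WT and 6.92 to 7.17 in Merit40-/- (median difference -0.29, 2 higher and 3 lower). The 8 granulocyte markers had means of 8.79 to 9.17 and 8.72 to 9.39, and the 10 measured monocyte and macrophage markers of 4.70 to 5.08 and 4.77 to 5.09. None of these markers passed the threshold of an adjusted p under 0.05 in limma. At an unadjusted p under 0.05 in limma lay 2 of 5 erythroid, 2 of 6 megakaryocyte and 1 of 8 granulocyte markers. So did 1 of 10 monocyte and macrophage, 1 of 8 osteoclast and 1 of 6 sort-negative markers, and 0 HSC or muscle markers. Arrays did not overlap between genotypes for 1 of 12 HSC (Kit), 1 of 6 megakaryocyte (Itga2b) and 2 of 10 muscle markers (Pvalb, Tnnt3). Over all genes the shares were 4.22% and 9.05%. The part of the markers in the members' differences was not tested.

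None of the 10 genes passed the threshold between genotypes. The threshold was an adjusted p under 0.05 in limma over all 23185 genes, and it called 1 gene, Babam1 (0.00431% of those tested). Every member had an adjusted p of 0.999 in limma. At an unadjusted p under 0.05 there was 1 member, Btg2, where 979 genes or 4.22% of all genes tested lie at that level. Btg2 was also the one member whose arrays did not overlap between genotypes, which holds for 2099 genes (9.05% of all). Among the members 5 were lower and 5 higher in Merit40-/-, and their median difference was -0.042, beside 0.0052 over all genes. By family the median difference was -0.30 for NR4A, -0.15 for BTG/TOB and 0.14 for ZFP36. The 95% interval stayed inside 2-fold up or down for 9 of the 10 genes, as it did for 96.4% of all genes, and the exception was Btg2. Log2 differences of genes of low signal are compressed, which concerns Nr4a3 and Tob1, the 2 members below the median of all genes. In a bulk sample, fewer cells that express a gene and less of its RNA per cell cannot be told apart.

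**Figure D2:**
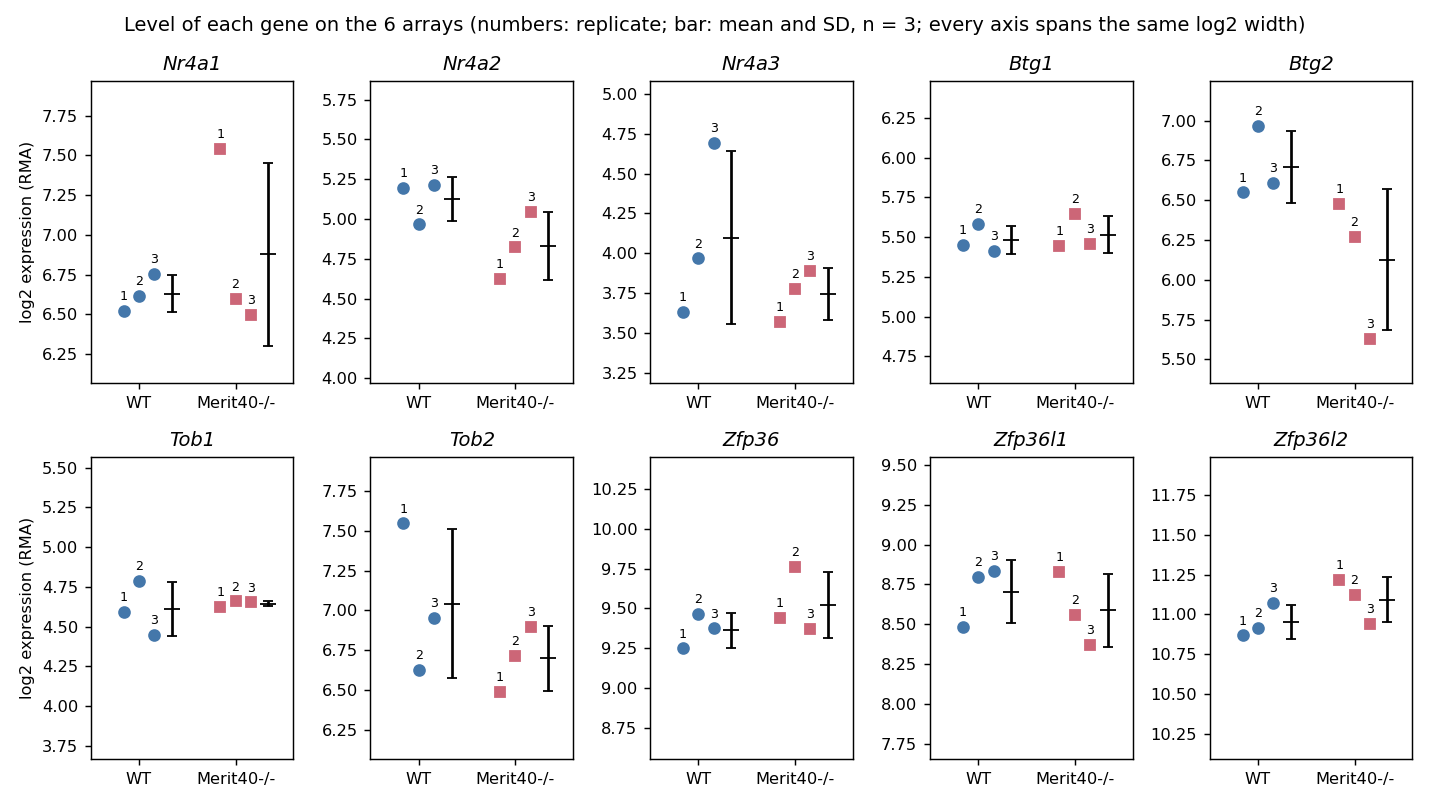
Log2 expression of each of the 10 genes on the 3 WT arrays (circles) and the 3 Merit40-/- arrays (squares), numbered by replicate, with the mean and SD of each group (n = 3) as a bar; every vertical axis spans the same width. Only for Btg2 do all 3 Merit40-/- arrays lie below all 3 WT arrays, and Nr4a1 stands out on Merit40-/- replicate 1 at 7.54.

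The NR4A receptors did not move in one direction. Nr4a1 (Entrez Gene 15370, also called Nur77) read 6.52, 6.62 and 6.75 in WT and 7.54, 6.60 and 6.50 on the Merit40-/- arrays. Only Merit40-/- replicate 1 was high, replicate 2 lay within the WT range and replicate 3 just below it. The group levels were 6.63 ± 0.12 in WT and 6.88 ± 0.57 in Merit40-/- (SD, n = 3 each), and the difference was 0.25 (SE 0.26, 95% interval -0.35 to 0.85). When Merit40-/- replicate 1, which carries the muscle genes, was left out, the difference was -0.084 (adjusted p = 0.998 in limma), so its sign turned. The part of the muscle RNA in the high Nr4a1 reading was not tested. Over the 6 arrays Nr4a1 spanned 1.04 log2 units, and 7.22% of all genes had a range at least as wide.

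Nr4a2 (Entrez Gene 18227, Nurr1), the paralog best known from dopaminergic neurons and as a brake on HSC division, read 5.20, 4.97 and 5.21 in WT. On the Merit40-/- arrays it read 4.62, 4.82 and 5.05. Replicates 1 and 2 of Merit40-/- lay below all WT arrays and replicate 3 lay within the WT range. Its level was 5.12 ± 0.14 in WT and 4.83 ± 0.21 in Merit40-/- (SD, n = 3 each), a difference of -0.30 (SE 0.15, 95% interval -0.63 to 0.043). Without Merit40-/- replicate 3, the array with high Ctsk, the difference was -0.40, and without Merit40-/- replicate 1 it was -0.19. Its unadjusted p was 0.0788 in limma with all arrays and its adjusted p stayed at 0.875 or more in every alternative fit. The level lies close to the median of all genes.

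Nr4a3 (Entrez Gene 18124, Nor1), the third receptor of the family, read 3.63, 3.97 and 4.70 in WT and 3.57, 3.78 and 3.89 in Merit40-/-. The WT arrays were the scattered group, and WT replicate 3 alone stood above the rest. The difference was -0.35 (SE 0.25, 95% interval -0.94 to 0.23). Without WT replicate 3 it was -0.055, and without WT replicate 1 it was -0.59, so its size changed with single WT arrays. All readings lay below the median of all genes.

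Btg2 had the lowest difference of the members. Btg2 (Entrez Gene 12227), which links p53 and growth signals to a slower cell cycle, read 6.55, 6.97 and 6.61 on the WT arrays. It read 6.48, 6.27 and 5.63 on the Merit40-/- arrays. All 3 Merit40-/- arrays lay below all WT arrays, replicate 1 only just so and replicate 3 furthest. The levels were 6.71 ± 0.23 in WT and 6.13 ± 0.44 in Merit40-/- (SD, n = 3 each), a difference of -0.58 (SE 0.23). The 95% interval ran from -1.11 to -0.061, that is from 2.15-fold to 1.04-fold lower. The unadjusted p was 0.0328 in limma and 630 genes had a smaller one.

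The size of the Btg2 difference rested in part on Merit40-/- replicate 3, the array with high Ctsk and Acp5. Without that array the difference was -0.34 (adjusted p = 0.986 in limma), and without Merit40-/- replicate 1 it was -0.76 (adjusted p = 0.965 in limma). With both of these arrays left out, Merit40-/- replicate 2 differed from WT by -0.44. The part of osteoclast RNA in the Btg2 reading of replicate 3 was not tested. Only 2.90% of all genes had a range over the 6 arrays at least as wide as that of Btg2, 1.34 log2 units.

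Proliferation markers stood beside these values. All 9 measured proliferation genes, among them Mki67 and Top2a, were lower in the Merit40-/- mean, beside 48.5% of all genes. The median difference was -0.21, with none past the threshold and 0 at an unadjusted p under 0.05 in limma. The arrays did not overlap for 1 of the 9, Birc5, beside 9.05% of all genes. The mean level of the 9 was 8.49, 8.47 and 8.33 in WT and 8.01, 8.46 and 8.12 on the Merit40-/- arrays. Merit40-/- replicates 1 and 3 were low and replicate 2 was at the WT level. Btg2 read 6.48, 6.27 and 5.63 on Merit40-/- replicates 1, 2 and 3. The part of the proliferation genes in the Btg2 difference was not tested.

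Btg1, Tob1 and Tob2 complete the antiproliferative genes measured as members. Btg1 (Entrez Gene 12226), an inhibitor of division known from lymphocytes, read 5.45, 5.58 and 5.41 in WT and 5.45, 5.65 and 5.46 in Merit40-/-. The groups overlapped, with a difference of 0.034 (SE 0.12, 95% interval -0.24 to 0.31). The genes Btg1b and Btg1c, named after Btg1 and singled out after their values were seen, have rows of their own and differed by -0.037 and 0.089. How far probes of these 3 rows share sequence was not tested.

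Tob1 (Entrez Gene 22057), which restrains T cell division, read 4.59, 4.79 and 4.45 in WT and 4.63, 4.66 and 4.65 in Merit40-/-. The Merit40-/- arrays lay inside the WT range, and the difference was 0.036 (SE 0.13, 95% interval -0.25 to 0.33). Tob2 (Entrez Gene 57259), its close paralog, read 7.55, 6.63 and 6.95 in WT and 6.49, 6.71 and 6.90 in Merit40-/-. WT replicate 1 was high, and the other 5 arrays overlapped. The Tob2 difference was -0.34 (SE 0.23, 95% interval -0.88 to 0.19). It was -0.092 without WT replicate 1 and -0.55 without WT replicate 2, and its adjusted p was 0.965 or more in every alternative fit in limma.

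**Figure D3:**
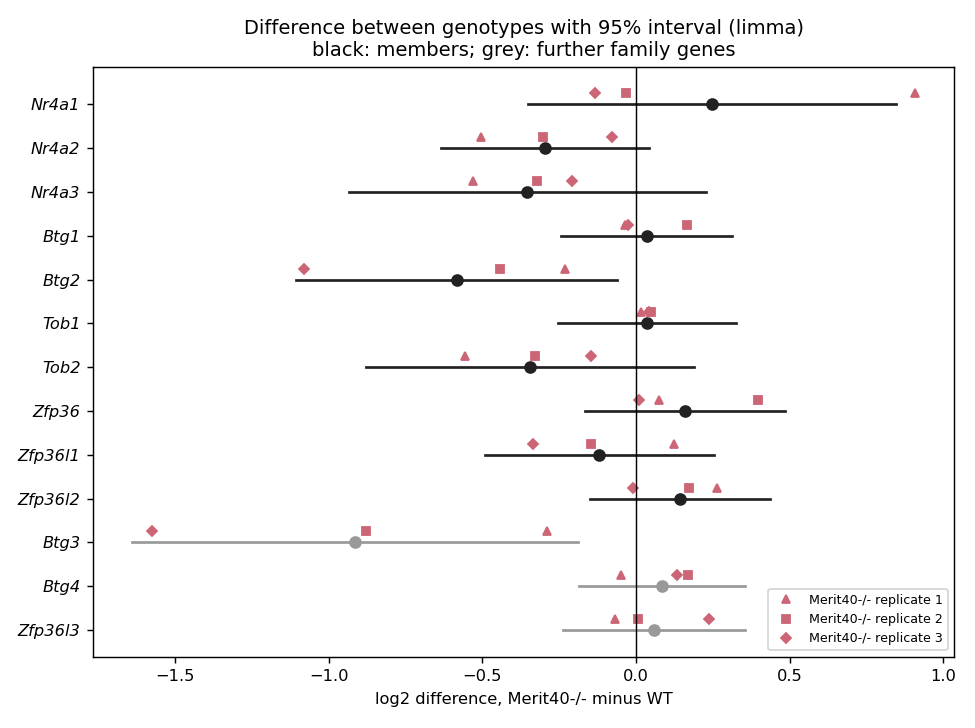
Log2 difference between genotypes (Merit40-/- minus WT) of the 10 members (black) and 3 further family genes (grey), with 95% intervals from limma; the small symbols above each line are the Merit40-/- arrays minus the WT mean. The intervals of Btg2 (-1.11 to -0.061) and Btg3 lie below 0, and the Nr4a1 point rests on replicate 1.

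The 3 ZFP36 genes differed by 0.16 or less in either direction. Zfp36 (Entrez Gene 22695), which encodes tristetraprolin and limits cytokine mRNAs, read 9.25, 9.47 and 9.37 in WT and 9.44, 9.76 and 9.37 in Merit40-/-. Merit40-/- replicate 2 was the high array and the others lay within the WT range. The difference was 0.16 (SE 0.14, 95% interval -0.17 to 0.49). Without Merit40-/- replicate 2 it was 0.042. With Merit40-/- replicates 1 and 3 left out, which leaves only replicate 2 of that genotype, it was 0.40.

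Zfp36l1 (Entrez Gene 12192), which acts with Zfp36l2 in lymphocyte development, read 8.48, 8.80 and 8.84 in WT and 8.83, 8.56 and 8.37 in Merit40-/-. The groups overlapped, and the difference was -0.12 (SE 0.16, 95% interval -0.49 to 0.25). It was -0.24 without Merit40-/- replicate 1 and -0.011 without Merit40-/- replicate 3. Zfp36l2 (Entrez Gene 12193), which is required for definitive haematopoiesis, read 10.87, 10.91 and 11.07 in WT and 11.21, 11.12 and 10.94 in Merit40-/-. Merit40-/- replicates 1 and 2 lay above all WT arrays and replicate 3 lay within the WT range. The difference was 0.14 (SE 0.13, 95% interval -0.15 to 0.43), and without Merit40-/- replicate 3 it was 0.22. Without Merit40-/- replicate 1 it was 0.081. For Zfp36 and Zfp36l2 the interval leaves room for a rise of up to 1.40-fold and 1.35-fold, and for Zfp36l1 for a level up to 1.41-fold lower. Over all 6 arrays Zfp36, Zfp36l1 and Zfp36l2 spanned 0.51, 0.47 and 0.35 log2 units, beside a median range of 0.49 over all genes.

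Beyond the members, Btg3 of the same family stood at a lower level in Merit40-/-. Btg3 read 5.81, 5.24 and 5.88 in WT and 5.35, 4.77 and 4.07 in Merit40-/-. Replicates 2 and 3 of Merit40-/- lay below all WT arrays, and replicate 1 lay within the WT range. The difference was -0.91 (SE 0.32, unadjusted p = 0.0196, adjusted p = 0.999 in limma). It was -0.58 without Merit40-/- replicate 3 and -1.23 without Merit40-/- replicate 1. Both Btg2 and Btg3 were lowest on Merit40-/- replicate 3. Btg4, a family member known from oocytes, differed by 0.084 and Zfp36l3, a rodent gene of the placenta, by 0.059, both below the median of all genes.

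The machinery through which the members act was compared next. Of 15 measured deadenylation genes, among them the subunits of CCR4-NOT, 7 were higher and 8 lower with 0 past the threshold, and the median difference was -0.00020. The deadenylase gene Cnot8 had the highest difference, 0.30 (SE 0.18), and the subunit gene Cnot11 the lowest, -0.19 (SE 0.19). With 1 array left out, Cnot8 ranged from 0.17 (without WT replicate 1) to 0.46 (without WT replicate 2). Cnot11 ranged from -0.35 (without Merit40-/- replicate 3) to -0.044 (without WT replicate 1). Of 16 genes for ARE-binding and decay factors, 4 were higher and 12 lower with 0 past the threshold and a median of -0.052. The decapping factor Dcp1a differed by 0.15 (SE 0.17) and Rc3h1, which encodes the decay factor roquin, by -0.20 (SE 0.11). Without WT replicate 1 the Dcp1a difference was 0.056, and without WT replicate 3 it was 0.30. The arrays did not overlap for 1 of the 15 deadenylation genes (Parn) and 1 of the 16 decay genes (Rc3h1), beside 9.05% of all genes. Over all genes 51.5% were higher and 48.5% lower.

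Transcripts that ZFP36 proteins are known to bind differed in both directions. Of 21 such genes 10 were higher and 11 lower, with a median of -0.029 and 0 past the threshold. The angiogenic factor Vegfa differed by 0.26 (SE 0.14) and Stat5b, a transducer of cytokine signals, by -0.21 (SE 0.18). Vegfa ranged from 0.17 without WT replicate 3 to 0.36 without WT replicate 2. Stat5b read 8.36 and 8.21 on Merit40-/- replicates 1 and 2 and 7.68 on replicate 3, and without that array its difference was -0.0091, and without Merit40-/- replicate 1 it was -0.35. Only 11 of the 21 lay above the median of all genes. The arrays did not overlap for 1 of the 21, Il23a, beside 9.05% of all genes.

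Of 14 partners and upstream factors of the NR4A genes, such as the retinoid X receptors and the CREB coactivators, 8 were higher and 6 lower, with a median of 0.050 and 0 past the threshold. Crem, a CRE-binding factor, differed by 0.24 (SE 0.12) and read 4.30, 4.40 and 4.29 in WT and 4.54, 4.44 and 4.74 in Merit40-/-. For Crem the 2 genotypes did not overlap (beside 9.05% of all genes), at a level below the median of all genes. The CREB coactivator Crtc3 differed by -0.22 (SE 0.14), from -0.34 without Merit40-/- replicate 1 to -0.13 without Merit40-/- replicate 2. The Crem difference was 0.16 without Merit40-/- replicate 3.

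Other immediate early genes were compared because Nr4a1, Btg2 and Zfp36 are induced with them. Of 37 such genes 22 were higher and 15 lower in Merit40-/-, with a median of 0.071 and 0 past the threshold. Their mean level was 6.09, 6.25 and 6.16 in WT and 6.26, 6.27 and 6.18 on the Merit40-/- arrays, so the groups overlapped. Junb, an AP-1 subunit that restrains HSC expansion, had the highest difference. It read 6.86, 6.52 and 6.73 in WT and 7.11, 7.41 and 7.07 in Merit40-/-, a difference of 0.49 (SE 0.15, adjusted p = 0.999 in limma). The signalling regulator Rgs2 had the lowest, -0.30 (SE 0.18), which was -0.12 without WT replicate 2 and -0.18 without Merit40-/- replicate 3. The arrays did not overlap for 3 of the 37, Junb, Ppp1r15a and Dusp5, beside 9.05% of all genes. Nr4a1 was highest on Merit40-/- replicate 1, where 7 of the 37 and 16.1% of all genes were highest. On Merit40-/- replicate 2, 9 of the 37 were highest, beside 17.7% of all genes. On WT replicate 2 it was 8, beside 15.0% of all genes. Btg2 was lowest on Merit40-/- replicate 3, where the list mean was within the WT range. Btg2 at -0.58 lay below every gene of this list.

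**Figure D4:**
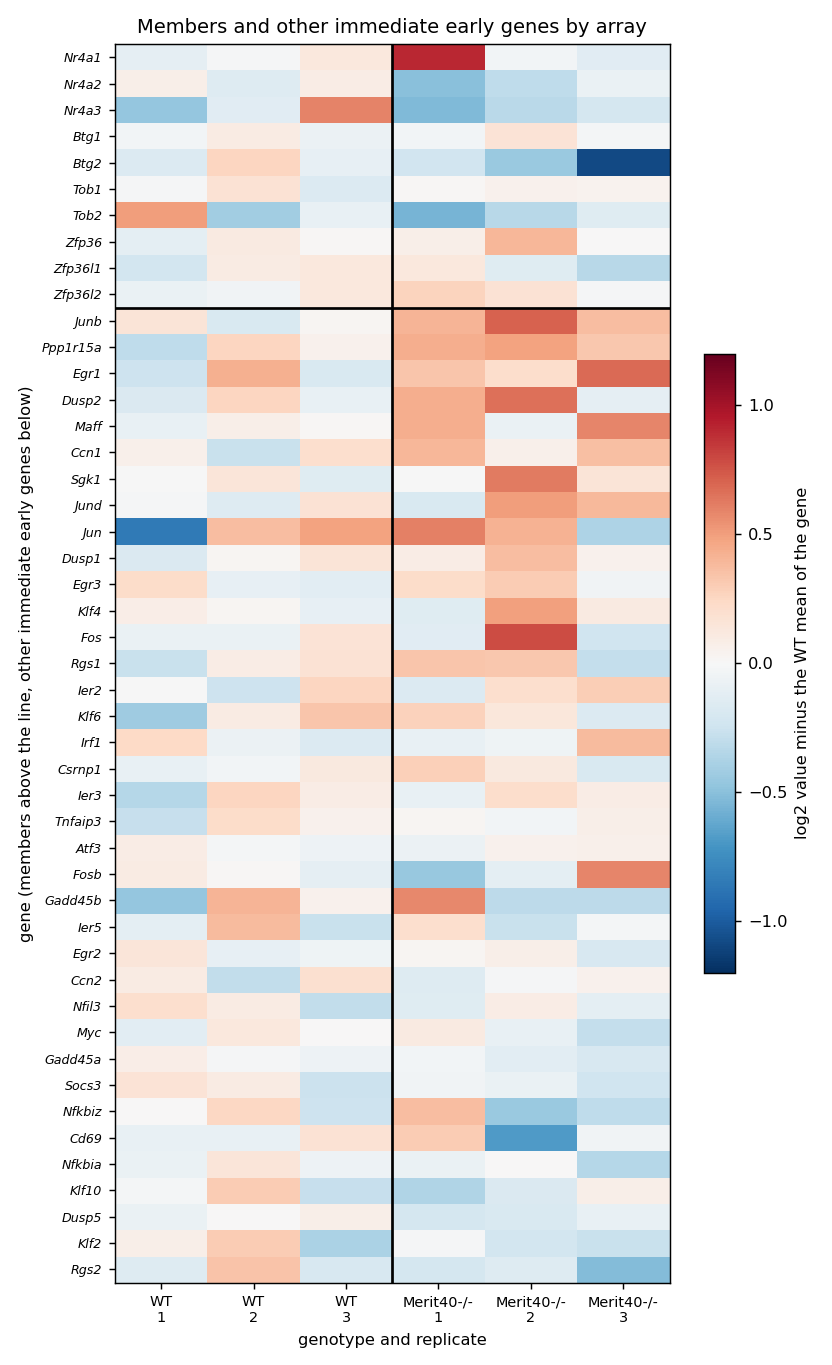
Log2 values minus the WT mean of each gene on the 6 arrays (columns), for the 10 members above the line and 37 other immediate early genes below it, sorted by their difference between genotypes. The darkest cells of the members are Nr4a1 on Merit40-/- replicate 1 (0.91 above the WT mean) and Btg2 on Merit40-/- replicate 3 (-1.08); Junb, at the top of the lower block, is above its WT mean on all 3 Merit40-/- arrays.

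The p53 targets were set beside Btg2, which is one of them. Of 19 measured others 10 were higher and 9 lower, with a median of 0.018 and 0 past the threshold. Cdkn1a, the cyclin-dependent kinase inhibitor p21, read 4.92, 5.05 and 5.33 in WT and 5.65, 6.39 and 5.62 in Merit40-/-. All 3 Merit40-/- arrays lay above all WT arrays, with a difference of 0.78 (SE 0.22, adjusted p = 0.999 in limma), opposite in sign to that of Btg2. The difference of Cdkn1a was 0.90 without Merit40-/- replicate 1, 0.53 without replicate 2 and 0.92 without replicate 3. Phlda3, an inhibitor of AKT, had the lowest difference, -0.35 (SE 0.21), which was -0.17 without Merit40-/- replicate 2 and -0.52 without WT replicate 2. Ccng1, Cdkn1a and Plk2 were the 3 of 19 whose arrays did not overlap, beside 9.05% of all genes.

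**Figure D5:**
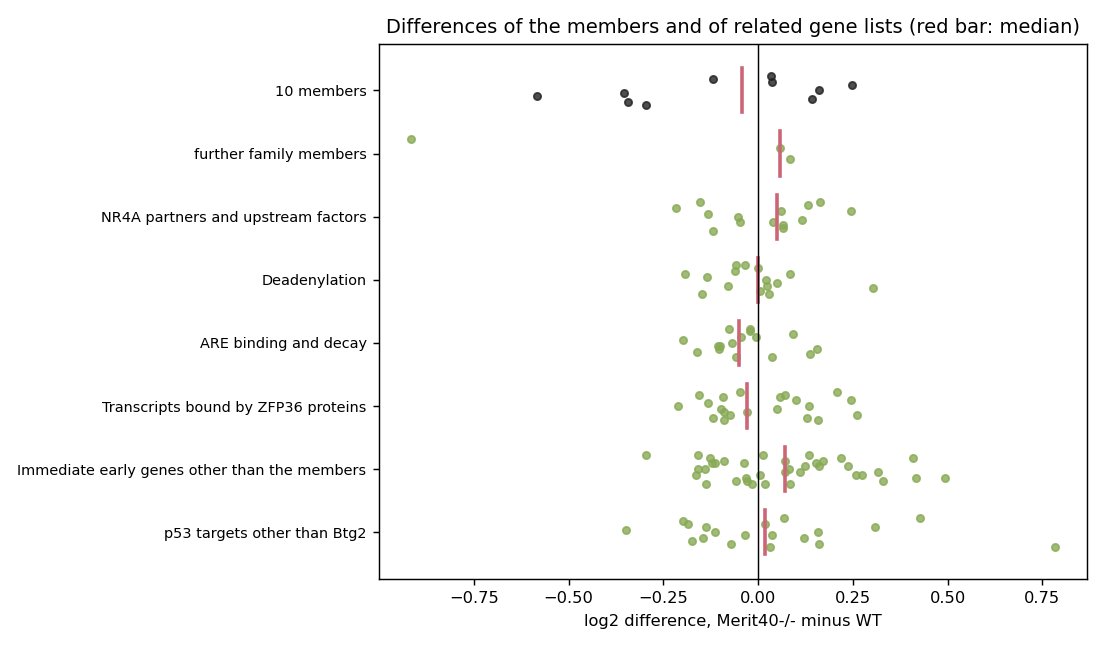
Log2 difference between genotypes of each gene (1 point each) for the 10 members and 7 lists of related genes, with the median of each as a red bar. The medians lie between -0.052 and 0.071, and the points furthest from 0 are Btg3 at -0.91 and Cdkn1a at 0.78.

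The members did not share one pattern over the arrays. Of the 45 pairs of members, 21 had a positive and 24 a negative Pearson's r over the 6 arrays, from -0.72 for Nr4a1 with Nr4a2 to 0.85 for Btg1 with Zfp36. Btg2 was most like Zfp36l1 among the members (r = 0.75), and 558 other genes were more like Btg2 than that. These values are descriptions over 6 arrays that include both genotypes, and with so few arrays 41 to 128 of 10616 or 10617 genes compared reach an r over 0.9 with any given member. Among named genes at or above the median level, the one most like Btg2 was Thoc7, of the mRNA export complex THO (r = 0.998). It read 9.48, 9.71 and 9.51 in WT and 9.46, 9.34 and 9.07 in Merit40-/-. The gene most like Nr4a1 was the mRNA export factor Rae1 (r = 0.998), which was highest on Merit40-/- replicate 1 at 9.60 and read 9.11 to 9.21 on the others. For the remaining members the most alike genes were Ifna4 for Nr4a2, Upp1 for Nr4a3, Tbca for Btg1, Glrx3 for Tob1, Fzd7 for Tob2, Gkn3 for Zfp36, Dele1 for Zfp36l1 and Rabl2 for Zfp36l2, with r from 0.979 to 0.995. Without the 2 arrays furthest from the member's median, r fell to 0.51 for Btg1 with Tbca and stayed at 0.747 or more for the other 9 pairs.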

How the data were processed

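Expression was measured on 6 arrays of sorted HSCs, 3 per genotype. The authors deposited RMA-normalized log2 values; the submitters' processing notes name RMA and affy. No version, chip definition or genome build is given in the sources used here. RMA subtracts background, equalises the distributions of the arrays and summarises probes, so an overall difference in RNA yield is removed. Among 25206 probe sets, 23185 carried 1 symbol, 0 carried several, and 2021 are unnamed here. All 23185 Entrez numbers were found in the reference gene table (GRCm38.p6), used for symbols only.

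All 23185 genes were tested without a filter, with limma 3.58.1 in R 4.3.3 (lmFit, eBayes, genotype as the only term, 2-sided, Benjamini-Hochberg over all genes, threshold 0.05). Differences are Merit40-/- minus WT, with moderated SE and 95% intervals. The procedure was tested on simulated data. Precision is limited by the small number of arrays. The members, lists and tests were chosen with earlier results of these data known. Promoter motifs were chosen after the values were seen. Named genes are all members and Babam1, the highest and lowest member of each list and the most alike gene of each member. Predicted loci, small RNAs and sex-linked genes were left out as most alike genes. Dusp5, Ppp1r15a, Ccng1, Plk2, Mef2d, Parn, Il23a, Zfp36l3 and the marker genes were named after their values were seen. The alternatives were a replicate block, 2 variance models, array weights, 3 scalings and leaving out the dimmest 30% or 50% of genes. Further ones were leaving out each array, an unmoderated model and other thresholds. Added after seeing the data, both Merit40-/- replicates 1 and 3 were left out together, which leaves only replicate 2 of that genotype.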

Additional observations from a re-analysis of the deposited data

How the results depend on the processing

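In 17 alternative fits 0 members passed an adjusted p of 0.05 in limma, and 0 passed at 0.1. At an unadjusted p under 0.05 in limma lay 1 of the 10 members (Btg2) and 5 of the 121 genes of the related lists, beside 979 or 4.22% of all genes. The 5 were Btg3, Junb, Ppp1r15a, Cdkn1a and Plk2. With 1 array left out, other members also reached an unadjusted p under 0.05 in limma. These were Nr4a3 without WT replicate 1 (0.0391), Tob2 without WT replicate 2 (0.0379) and Nr4a2 without Merit40-/- replicate 3 (0.0290). Btg2 was at 0.113 without WT replicate 2 and at 0.0918 without Merit40-/- replicate 3 in limma. The unmoderated model called 0 genes in all (Babam1 at an adjusted p of 0.168), and with Merit40-/- replicates 1 and 3 left out together 2 genes were called, Babam1 and Mir3079. The fit with the replicate number as a block called 1 gene, Babam1, and 0 members, with Btg2 at an unadjusted p of 0.0236. Over the 17 fits that p ran from 0.0122 to 0.113 and was under 0.05 in 12. Same-numbered arrays did not deviate together (r of -0.048 to 0.044 over all genes), so the numbers were not taken as pairs. The median difference of the members was -0.14 to 0.011 with 1 array left out, the lowest without Merit40-/- replicate 1. The members without overlap numbered 1 to 4 with 1 array left out (beside 16.9% to 19.6% of all genes), and 5 with Merit40-/- replicates 1 and 3 both left out (beside 50.9% of all genes). The sign turned for Nr4a1 without Merit40-/- replicate 1 (-0.084) and without replicates 1 and 3 together (-0.033). It also turned for Btg1 without Merit40-/- replicate 2 (-0.032), for Tob1 without WT replicate 3 (-0.044) and for Dcp1a without Merit40-/- replicates 1 and 3 (-0.051). With 1 array left out, Nr4a1 ranged from -0.084 to 0.44, Btg1 from -0.032 to 0.085 and Tob1 from -0.044 to 0.12. The other 7 members kept their sign in every fit, and Btg2 ranged from -0.76 to -0.34. The filter on the dimmest 50% of genes left out Nr4a3 and Tob1.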
